A study of Homo sapiens with 12 samples.

Results

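Expression of 39 genes of tumor necrosis factor (TNF) receptor and NF-κB signaling was examined in gemcitabine (GEM)-resistant pancreatic cancer (PC) cells and their parental cells. The genes were chosen by name, with earlier results of these data known. They run from the ligand and its receptors to the NF-κB subunits, their inhibitors and 2 cell-associated targets, and the secreted targets were left out. All 39 were found among the 58302 genes of the expression table, each in a single row. BxPC-3 and CFPAC-1 are established epithelial cell lines from human pancreatic ductal adenocarcinoma. Their resistant derivatives, BxPC-3-GR and CFPAC-1-GR, came from continued culture with rising concentrations of GEM, a cytidine analog that blocks DNA synthesis. Each of the 4 lines was sequenced in 3 replicates, 12 libraries in all, and the values are FPKM, in which fragment numbers are divided by the length of a gene and by library size. Each parental line gave 1 resistant derivative, so drug selection and chance differences between derivatives cannot be told apart. No source used here says that the replicates were separate cultures, so p-values measure the spread between libraries, which may be technical.

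In this pathway, TNF binds the receptor TNFR1, encoded by TNFRSF1A, which gathers the adaptor TRADD, TRAF ubiquitin ligases, the kinase RIPK1 and the inhibitor of apoptosis proteins. Ubiquitin chains made there recruit the TAB and TAK1 proteins and the IκB kinase (IKK) complex. IKK marks the IκB inhibitors for degradation and so frees NF-κB dimers to enter the nucleus. NF-κB then induces its own inhibitors, among them IκBα (NFKBIA) and A20 (TNFAIP3), and survival genes such as BIRC3. When ubiquitination fails, the same receptor can instead activate caspase-8 through FADD. In PC the pathway is known for links to inflammation and cell survival.

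The promoters of the 4 genes that were significantly upregulated in BxPC-3-GR, by the test described with the counts, are shown for the sequence they hold upstream of their start. RefSeq (GRCh38.p14) gave windows for 35 of the 39 genes, and the 250 bases before the start are printed 5′ to 3′ on the gene's strand. The windows are chr11:102317234-102317483 for BIRC3 (plus strand), chr19:10270870-10271119 for ICAM1 (plus strand), chr14:35404750-35404999 for NFKBIA (minus strand) and chr14:103123211-103123460 for TNFAIP2 (plus strand). Capitals mark matches, on either strand, to GGNNTTTCC, a short spelling of the NF-κB motif that was settled after the windows had been read.
BIRC3: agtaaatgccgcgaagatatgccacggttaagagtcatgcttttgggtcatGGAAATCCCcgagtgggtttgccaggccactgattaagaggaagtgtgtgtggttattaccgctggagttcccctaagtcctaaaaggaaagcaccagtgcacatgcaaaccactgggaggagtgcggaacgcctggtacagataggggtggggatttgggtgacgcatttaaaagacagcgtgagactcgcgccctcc
ICAM1: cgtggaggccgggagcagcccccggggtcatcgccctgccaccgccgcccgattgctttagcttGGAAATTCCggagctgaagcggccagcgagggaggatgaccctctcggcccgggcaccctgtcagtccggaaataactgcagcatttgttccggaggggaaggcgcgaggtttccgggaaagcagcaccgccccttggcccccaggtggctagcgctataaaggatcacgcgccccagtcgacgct
NFKBIA: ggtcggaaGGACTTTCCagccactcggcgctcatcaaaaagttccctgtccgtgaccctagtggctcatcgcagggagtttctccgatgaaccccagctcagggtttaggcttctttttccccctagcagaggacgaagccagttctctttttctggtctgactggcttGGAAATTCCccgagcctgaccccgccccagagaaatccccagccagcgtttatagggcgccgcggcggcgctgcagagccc
TNFAIP2: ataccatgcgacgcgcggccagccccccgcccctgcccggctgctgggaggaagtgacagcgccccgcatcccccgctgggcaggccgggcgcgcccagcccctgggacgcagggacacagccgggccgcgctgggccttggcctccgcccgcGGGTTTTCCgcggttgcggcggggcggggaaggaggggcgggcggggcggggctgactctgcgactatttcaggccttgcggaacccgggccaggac
All 4 windows held a match, with 2 in that of NFKBIA. The spelling was settled with these windows known, so this count is a description and not a test. The motif stood in 18 of the 61 windows of the set, which belonged to 15 of the 35 genes. It also stood in 1926 of all 35116 windows in the table (5.48%). The others among the 15 genes were not significantly upregulated in BxPC-3-GR, or were not tested there. In BIRC3 the match lay 199 to 191 bases before the start, in ICAM1 186 to 178 bases and in TNFAIP2 97 to 89 bases. The match nearest the start of NFKBIA lay 81 to 73 bases before it. These distances are from the RefSeq start, which need not be the start in the gene coordinates given with the values. A match is a description of the letters, and no binding was measured.

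TNF itself was listed at 0 in all 12 libraries. The gene lies at chr6:31575567-31578336 on GRCh38, and 36 of 101 protein-coding genes within 1 Mb of it (35.6%) were also listed at 0 in every library, against 12.7% of 19817 protein-coding genes in the table. TUBB, the main β-tubulin gene, was at 0 in every library too, so no level of TNF can be read. TNFRSF1A, the ubiquitous receptor, was measured at 16.7, 11.9 and 11.3 FPKM in BxPC-3 and 8.59, 9.24 and 8.43 FPKM in BxPC-3-GR. It was at 9.35, 11.2 and 10.2 FPKM in CFPAC-1 and 6.46, 6.82 and 6.48 FPKM in CFPAC-1-GR. Every resistant library was below every library of its parental line. The fall was 0.53 on the log2(FPKM + 1) scale in BxPC-3-GR (SE 0.144, limma adjusted p = 0.02). In CFPAC-1-GR it fell by 0.57 (SE 0.0806, adjusted p = 0.00051). TNFRSF1B, the second TNF receptor, stayed between 0.342 and 0.639 FPKM in the 6 BxPC-3 and BxPC-3-GR libraries and was not tested there. It was at 6.75, 5.64 and 6.02 FPKM in CFPAC-1 and 2.83, 4.24 and 4.05 FPKM in CFPAC-1-GR, lower in all resistant libraries (log2FC -0.61, SE 0.135, adjusted p = 0.0045). Both falls in CFPAC-1-GR were no longer found once GC content and gene length were corrected for (log2FC 0.19 and 0.28, adjusted p = 0.079 and 0.07).

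The whole set was first counted in each line. A gene passed the test when limma's adjusted p was below 0.05, and was called significantly differentially expressed (SDE) when its absolute log2FC also exceeded 1. In the BxPC-3 lines 35 genes averaged 1 FPKM or more and were tested, of which 16 passed upward and 10 passed downward, while 26.2% and 31.5% of all 11710 tested genes did so. Leaving out BxPC-3 replicate 1, BxPC-3 replicate 2 or BxPC-3-GR replicate 1 brought the downward count to 6, 6 and 5. The share of all genes passing downward in those fits is not given here, so the drop is no result about the members. With every library kept there were 4 SDE genes up (11.4% of 35) and 0 down, against 4.14% and 3.62% in the whole table. Resistant and parental libraries were separate for 30 of the 35, and for 66.1% of all genes. The median log2FC was 0.16 over these genes and -0.05 over all genes. In the CFPAC-1 lines 15 of 35 genes passed upward and 15 downward, against 44.6% and 34.9% of 12051 tested genes. Of these, 8 were SDE up and 5 SDE down, where 20.5% and 11.7% of all genes were. The libraries of the lines were separate for 32 of the 35 and for 82.1% of all genes. The median log2FC was 0.15 over the members and 0.13 over all genes, and the median absolute log2FC was 0.83 and 0.72. The share of members called in the CFPAC-1 lines was thus near that of all genes.

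**Figure D1:**
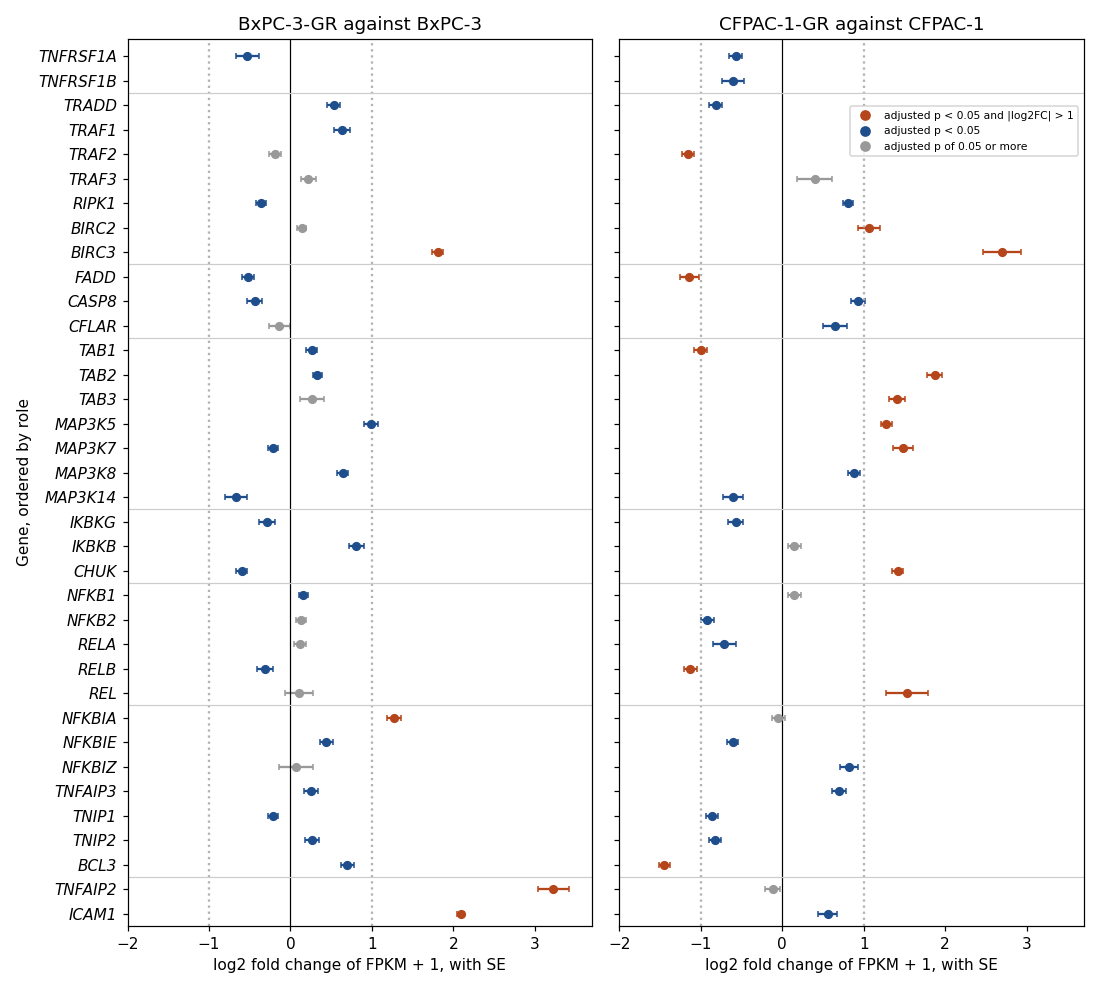
Log2 fold change of FPKM + 1 (x axis) with its standard error for each tested gene (y axis, ordered by role, grey lines between roles), in BxPC-3-GR against BxPC-3 (left) and CFPAC-1-GR against CFPAC-1 (right), 3 libraries per line. Dotted lines mark an absolute value of 1, which 4 genes passed upward on the left and 13 genes passed in either direction on the right.

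The fold changes of CFPAC-1-GR followed the GC content of the transcripts. Over all tested genes with a GC value, Spearman's rho between log2FC and GC content was -0.777 in the CFPAC-1 lines (12030 genes) and 0.039 in the BxPC-3 lines (11685 genes). Over the 35 members it was -0.91 in the CFPAC-1 lines and 0.02 in the BxPC-3 lines, as a description across genes that share libraries. The 8 genes SDE up in CFPAC-1-GR had GC contents of 34.8% to 46.1%, and the 5 SDE down had 58.6% to 67.4%. Against BxPC-3, rho over all genes was 0.625 for CFPAC-1 and 0.029 for CFPAC-1-GR, so the parental CFPAC-1 libraries stood apart. The CFPAC-1 log2FC below are therefore given as deposited and after a spline correction for GC content and length fitted across all genes. After the correction 2 members were SDE up and 0 down, against 7.07% and 2.35% of 12030 genes, and 17 passed upward and 2 downward, against 40.5% and 21.6%. In the BxPC-3 lines the same correction left the same 4 genes SDE. Preparation of the libraries and a response of the cells cannot be told apart as the source of the trend.

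**Figure D2:**
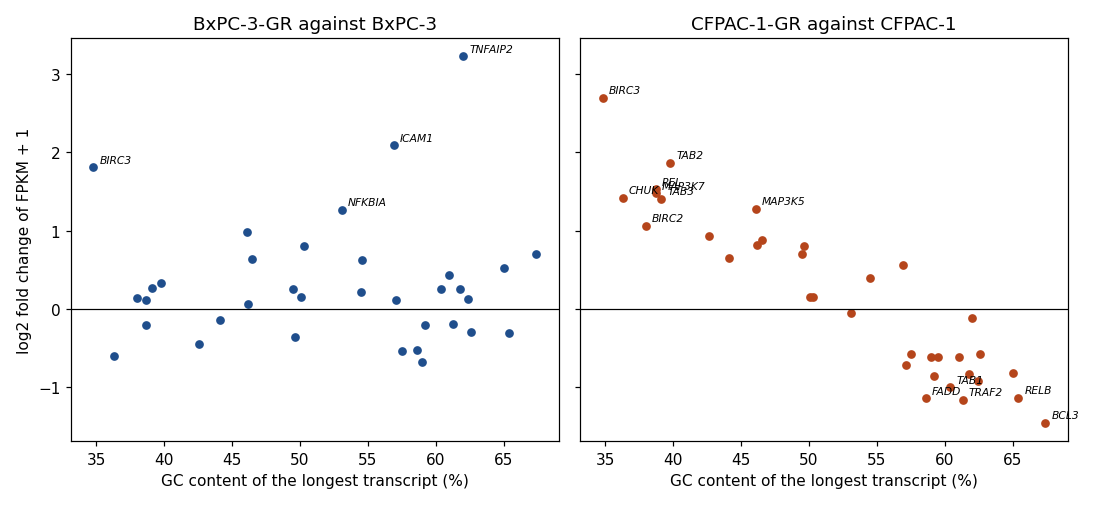
Log2 fold change of FPKM + 1 (y axis) against GC content of the longest transcript in percent (x axis) for the 35 tested genes of each line, with SDE genes named. The points show no slope on the left (rho 0.02) and fall from BIRC3 at 34.8% GC to BCL3 at 67.4% GC on the right (rho -0.91).

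BIRC3, which encodes the ubiquitin ligase cIAP2, was the only member SDE in the same direction in both lines as deposited. After the correction BIRC3 and ICAM1 were. The gene lies at chr11:102317450-102339403, next to BIRC2 at chr11:102347211-102378670. It was at 2.42, 2.19 and 2.55 FPKM in BxPC-3 and 10.8, 10.3 and 11.5 FPKM in BxPC-3-GR. Its mean rose from 2.38 ± 0.181 to 10.8 ± 0.624 (SD, n = 3), 4.55-fold (log2FC 1.81, SE 0.0662, limma adjusted p = 9.2e-06). In CFPAC-1 it was at 1.54, 1.40 and 0.566 FPKM and in CFPAC-1-GR at 16.3, 9.93 and 12.7 FPKM. The parental libraries spread widely but all lay below the resistant ones. The ratio of the means was 11.1 (log2FC 2.70, SE 0.233, adjusted p = 4.2e-05). After correction the log2FC was 1.48 (SE 0.202, adjusted p = 0.00097) in the CFPAC-1 lines and 1.82 in the BxPC-3 lines. The difference between the 2 responses was 0.89 as deposited (adjusted p = 0.01) and -0.27 after correction (adjusted p = 0.33).

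Of the 7 adaptors and ubiquitin ligases tested in the BxPC-3 lines, BIRC3 included, 3 passed upward and 1 downward. The shares over all genes were 26.2% and 31.5%. Of the 6 tested in the CFPAC-1 lines 3 passed upward and 2 downward as deposited, where 44.6% and 34.9% of all genes did. After correction 4 and 1 passed, beside 40.5% and 21.6% of all genes. BIRC2 encodes the related ligase cIAP1. It was at 2.27, 2.06 and 2.23 FPKM in BxPC-3 and 2.37, 2.62 and 2.52 FPKM in BxPC-3-GR, a log2FC of 0.14 that did not pass (adjusted p = 0.077, corrected 0.18, adjusted p = 0.028). In CFPAC-1 it was at 0.531, 0.798 and 0.935 FPKM and in CFPAC-1-GR at 2.06, 2.98 and 2.93 FPKM (log2FC 1.06, adjusted p = 0.0003), and 0.04 after correction (adjusted p = 0.84). TRAF2, the ligase that brings both cIAPs to the receptor, was at 21.5, 20.0 and 21.0 FPKM in CFPAC-1 and 8.25, 9.34 and 8.78 FPKM in CFPAC-1-GR. These groups were far apart (log2FC -1.16, SE 0.0714, adjusted p = 1.1e-05), but the corrected log2FC was -0.18 (adjusted p = 0.032). In BxPC-3-GR it was 11.7 ± 0.455 against 13.5 ± 1.10 FPKM in BxPC-3 (log2FC -0.19, adjusted p = 0.058, corrected -0.23, adjusted p = 0.01).

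TRADD, the adaptor bound directly to TNFR1, was at 1.84, 1.97 and 2.05 FPKM in BxPC-3 and 2.91, 3.69 and 3.23 FPKM in BxPC-3-GR, a rise in all libraries (log2FC 0.53, adjusted p = 0.0018). The CFPAC-1 libraries had it at 4.84, 4.32 and 4.45 FPKM and the CFPAC-1-GR libraries at 2.005, 2.35 and 2.07 FPKM. That fall of 0.82 on the log2 scale (adjusted p = 5.5e-05) turned to a log2FC of 0.34 after correction (adjusted p = 0.0035). RIPK1, the scaffold kinase of the complex, moved oppositely in the 2 lines. It was at 7.001, 6.95 and 7.93 FPKM in BxPC-3 and 5.60, 5.48 and 5.29 FPKM in BxPC-3-GR (log2FC -0.36, SE 0.0634, adjusted p = 0.0036). It was at 4.27, 3.95 and 3.95 FPKM in CFPAC-1 and 7.93, 7.57 and 8.04 FPKM in CFPAC-1-GR (log2FC 0.81, SE 0.0648, adjusted p = 3e-05). The corrected values were -0.35 (adjusted p = 0.0048) and 0.89 (adjusted p = 9.6e-05). TRAF1, a partner of TRAF2 without ligase activity of its own, rose from 1.10 ± 0.255 to 2.25 ± 0.124 FPKM in BxPC-3-GR (log2FC 0.63, adjusted p = 0.0019). It stayed between 0.188 and 0.244 FPKM in the CFPAC-1 lines, under the minimum. TRAF3, which holds NIK levels down, did not pass in either line as deposited (log2FC 0.22 and 0.40, adjusted p = 0.079 and 0.13), and passed in CFPAC-1-GR after correction (log2FC 0.72, adjusted p = 0.021). Its CFPAC-1-GR libraries held 1.36, 1.56 and 3.26 FPKM, and without replicate 3 the log2FC was 0.14 (adjusted p = 0.18). TRAF5 was under the minimum in both lines, at 0.436 FPKM in BxPC-3, 0.663 in BxPC-3-GR, 0.356 in CFPAC-1 and 1.27 in CFPAC-1-GR.

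In the death branch 2 of 3 genes passed downward in BxPC-3-GR, where 31.5% of all genes did. After correction 3 of 3 did, beside 32.3% of all genes. FADD, the adaptor that recruits caspase-8, was at 35.1, 34.0 and 32.4 FPKM in BxPC-3 and 24.7, 24.3 and 21.2 FPKM in BxPC-3-GR (log2FC -0.52, SE 0.0738, adjusted p = 0.0015). CASP8, the initiator caspase itself, was at 5.46, 4.13 and 4.38 FPKM and 2.97, 3.202 and 3.26 FPKM (log2FC -0.44, SE 0.0955, adjusted p = 0.0082). Both groups were clear of each other for either gene. CFLAR, which encodes the caspase-8 inhibitor c-FLIP, did not pass as deposited (log2FC -0.14, adjusted p = 0.38) and passed after correction (log2FC -0.38, adjusted p = 0.028). In CFPAC-1-GR, FADD fell by 1.14 on the log2 scale (adjusted p = 9.6e-05), from 72.6, 59.9 and 57.8 FPKM to 25.4, 31.4 and 28.0 FPKM. CASP8 went from 2.83, 2.82 and 3.34 FPKM to 7.23, 5.97 and 6.58 FPKM (log2FC 0.93, adjusted p = 8e-05) and CFLAR from 1.84 ± 0.435 to 3.46 ± 0.630 FPKM (log2FC 0.65, adjusted p = 0.005). In the CFPAC-1 lines none of the 3 passed after the correction, with log2FC of -0.15, 0.11 and -0.28 and adjusted p of 0.19, 0.27 and 0.19. An antisense gene overlaps 1011 of the 1841 exon bases of FADD. Whether the counting used strand is not given in the sources used here.

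Of the 13 genes SDE in CFPAC-1-GR as deposited, 5 were the signaling kinases MAP3K5 and MAP3K7 and the TAK1 partners TAB1, TAB2 and TAB3. None of these 5 was SDE after the correction. Over all genes 20.5% were SDE up and 11.7% down as deposited, and 7.07% and 2.35% after the correction. TAB3 and MAP3K7 passed the minimum mean with CFPAC-1 under 1 FPKM. MAP3K5 encodes ASK1, a stress kinase that TRAF2 can activate, and it rose in both lines. It was at 7.91, 9.20 and 9.86 FPKM in BxPC-3 and 17.6, 18.7 and 20.2 FPKM in BxPC-3-GR, a ratio of means of 2.10. The log2FC of 0.99 (SE 0.0914, adjusted p = 0.00025) lay just under the limit of 1. In CFPAC-1 it was at 4.08, 3.98 and 3.73 FPKM and in CFPAC-1-GR at 11.7, 10.4 and 10.9 FPKM (log2FC 1.28, SE 0.071, adjusted p = 8.4e-06). All resistant libraries exceeded their parental ones, and the corrected log2FC was 0.96 and 0.95 (adjusted p = 0.00025 and 0.0001). MAP3K8, the kinase TPL2, also rose in both lines. It went from 0.575 ± 0.0791 to 1.45 ± 0.123 FPKM in BxPC-3-GR (log2FC 0.64, adjusted p = 0.00036) and from 1.16 ± 0.0810 to 2.96 ± 0.210 FPKM in CFPAC-1-GR (log2FC 0.88, adjusted p = 3.1e-05). The corrected values were 0.65 and 0.70.

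TAB2, which binds ubiquitin chains and carries the kinase TAK1 to them, was at 11.3, 11.2 and 11.9 FPKM in BxPC-3 and 15.1, 14.1 and 14.8 FPKM in BxPC-3-GR (log2FC 0.33, adjusted p = 0.0023). The CFPAC-1 libraries had it at 1.38, 1.49 and 1.10 FPKM and the CFPAC-1-GR libraries at 8.15, 6.78 and 7.48 FPKM. The ratio of means there was 5.64 (log2FC 1.87, SE 0.0961, adjusted p = 7.3e-06), and the corrected log2FC was 0.86 (adjusted p = 0.00018). TAB3, its homolog, was at 0.362, 0.474 and 0.520 FPKM in CFPAC-1 and 3.12, 2.39 and 3.12 FPKM in CFPAC-1-GR (log2FC 1.41, adjusted p = 1.8e-05). The corrected value was 0.17 (adjusted p = 0.062). In the BxPC-3 lines TAB3 overlapped between the groups (log2FC 0.27, adjusted p = 0.16). MAP3K7 encodes TAK1, and it was at 0.635, 0.606 and 0.573 FPKM in CFPAC-1 and 4.03, 2.72 and 3.81 FPKM in CFPAC-1-GR (log2FC 1.48, adjusted p = 3.2e-05, corrected 0.37, adjusted p = 0.011). In BxPC-3-GR it fell from 6.46 ± 0.137 to 5.46 ± 0.391 FPKM (log2FC -0.21, adjusted p = 0.026). TAB1, the activating partner of TAK1, was at 10.1, 9.88 and 9.09 FPKM in CFPAC-1 and 4.10, 4.13 and 4.8004 FPKM in CFPAC-1-GR. Its log2FC of -1.0025 was only just past the limit (adjusted p = 3.2e-05), and it was -0.11 after correction (adjusted p = 0.21). In BxPC-3-GR it was 6.64 ± 0.277 against 5.38 ± 0.448 FPKM in BxPC-3 (log2FC 0.26, adjusted p = 0.018). MAP3K14 encodes NIK, the kinase of the non-canonical pathway. It fell in BxPC-3-GR from 2.29 ± 0.365 to 1.07 ± 0.307 FPKM (log2FC -0.67, adjusted p = 0.0064). In CFPAC-1-GR it was 3.24 ± 0.682 against 5.40 ± 0.254 FPKM (log2FC -0.61, adjusted p = 0.003, corrected 0.14, adjusted p = 0.38).

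The 3 IKK subunits did not move together. CHUK, which encodes IKKα, was at 4.24, 4.62 and 4.64 FPKM in BxPC-3 and 2.60, 2.89 and 2.45 FPKM in BxPC-3-GR, lower in every resistant library (log2FC -0.60, SE 0.0656, adjusted p = 0.00051). It was at 1.027, 1.25 and 1.15 FPKM in CFPAC-1 and 4.73, 4.70 and 4.79 FPKM in CFPAC-1-GR, higher in every resistant library (log2FC 1.42, SE 0.067, adjusted p = 6.3e-06). The corrected values were -0.58 (adjusted p = 0.00063) and 0.24 (adjusted p = 0.029). IKBKB, which encodes IKKβ, the kinase of the canonical pathway, was at 0.902, 1.02 and 0.785 FPKM in BxPC-3 and 2.06, 2.24 and 2.71 FPKM in BxPC-3-GR. This was a ratio of 2.59 (log2FC 0.81, SE 0.0895, adjusted p = 0.00052). Levels in CFPAC-1 were 1.04, 1.02 and 0.971 FPKM and in CFPAC-1-GR 1.18, 1.07 and 1.46 FPKM, which did not pass (log2FC 0.15, adjusted p = 0.13, corrected 0.03, adjusted p = 0.73). IKBKG, the ubiquitin-binding subunit NEMO, was at 5.07, 5.98 and 4.94 FPKM in BxPC-3 and 4.04, 4.73 and 3.72 FPKM in BxPC-3-GR (log2FC -0.29, adjusted p = 0.042). It was at 5.17, 5.64 and 4.56 FPKM in CFPAC-1 and 2.91, 3.44 and 3.00 FPKM in CFPAC-1-GR (log2FC -0.57, adjusted p = 0.00099), and 0.46 after correction (adjusted p = 0.0029). The IKBKG values are uncertain because the genome holds a near-identical partial copy.

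In BxPC-3-GR the 5 NF-κB subunit genes changed little. NFKB1, the p105/p50 gene, was at 18.0, 17.2 and 17.7 FPKM in BxPC-3 and 20.7, 19.1 and 19.7 FPKM in BxPC-3-GR (log2FC 0.16, SE 0.0524, adjusted p = 0.037). RELB, the partner of p52 in the non-canonical pathway, was at 3.86, 3.28 and 2.79 FPKM and 2.495, 2.29 and 2.61 FPKM (log2FC -0.31, SE 0.0988, adjusted p = 0.037). The others did not pass. NFKB2, the p100/p52 gene, was at 12.3, 11.1 and 10.5 FPKM and 12.6, 12.3 and 12.4 FPKM. RELA, the p65 gene, was at 3.33, 3.03 and 2.91 FPKM and 3.75, 3.14 and 3.41 FPKM. REL, the c-Rel gene, was at 2.30, 2.33 and 2.89 FPKM and 2.47, 2.16 and 3.87 FPKM. Their log2FC were 0.13, 0.12 and 0.11, with adjusted p of 0.14, 0.21 and 0.62.

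In the CFPAC-1 lines 1 of the 5 subunits passed upward and 3 downward as deposited, beside 44.6% and 34.9% of all genes. After the correction 0 of 5 passed there, where 40.5% of all genes passed upward and 21.6% downward. In the BxPC-3 lines only RELB then passed, downward, beside 26.6% upward and 32.3% downward of all genes. NFKB1 no longer passed in BxPC-3-GR (corrected log2FC 0.14, adjusted p = 0.051). REL was at 0.187, 0.131 and 0.129 FPKM in CFPAC-1 and 4.01, 2.16 and 1.29 FPKM in CFPAC-1-GR. The resistant libraries were all higher but spread over a wide range (log2FC 1.53, SE 0.26, adjusted p = 0.0013, corrected 0.25, adjusted p = 0.39). An overlapping same-strand gene shares 5702 of the 13170 exon bases of REL. Without CFPAC-1-GR replicate 1 the gene fell under the minimum mean and was not tested. RELB was at 3.41, 3.55 and 3.52 FPKM in CFPAC-1 and 0.929, 1.25 and 0.996 FPKM in CFPAC-1-GR (log2FC -1.13, adjusted p = 1.7e-05, corrected 0.00, adjusted p = 0.99). NFKB2 was at 24.2, 26.6 and 25.2 FPKM and 11.8, 13.9 and 13.3 FPKM (log2FC -0.92, adjusted p = 4.7e-05, corrected 0.05, adjusted p = 0.53). RELA was at 6.52, 4.28 and 5.09 FPKM and 2.48, 2.99 and 2.99 FPKM (log2FC -0.71, adjusted p = 0.0025, corrected -0.07, adjusted p = 0.67). NFKB1 did not pass, at 5.29, 6.29 and 5.73 FPKM and 6.91, 6.61 and 6.03 FPKM (log2FC 0.15, adjusted p = 0.13, corrected 0.17, adjusted p = 0.11).

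Of the inhibitors and feedback genes, 5 of the 7 tested passed upward in BxPC-3-GR and 1 downward, where 26.2% and 31.5% of all genes did. NFKBIA, the IκBα gene (chr14:35401511-35404749), was the only one SDE. It was at 13.96, 11.3 and 11.5 FPKM in BxPC-3 and 30.3, 30.2 and 31.9 FPKM in BxPC-3-GR, 2.52-fold higher with no overlap (log2FC 1.27, SE 0.0878, adjusted p = 8.6e-05). In CFPAC-1 it was at 17.0, 18.1 and 18.9 FPKM and in CFPAC-1-GR at 17.1, 18.6 and 16.2 FPKM, and these overlapped (log2FC -0.05, adjusted p = 0.56, corrected 0.47, adjusted p = 0.0018). BCL3, an atypical IκB protein that binds p50 and p52 in the nucleus, was at 5.15, 4.53 and 4.27 FPKM in BxPC-3 and 7.81, 8.74 and 8.03 FPKM in BxPC-3-GR (log2FC 0.70, SE 0.0766, adjusted p = 0.00048). It was at 19.8, 19.7 and 19.4 FPKM in CFPAC-1 and 6.61, 6.95 and 6.10 FPKM in CFPAC-1-GR (log2FC -1.45, SE 0.0686, adjusted p = 6.3e-06). The fall held after correction at a smaller size (log2FC -0.32, adjusted p = 0.0068).

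TNFAIP3, the A20 ubiquitin-editing enzyme, rose in both lines. It went from 11.2 ± 1.35 to 13.4 ± 0.0962 FPKM in BxPC-3-GR (log2FC 0.25, adjusted p = 0.043) and from 2.69 ± 0.239 to 4.98 ± 0.434 FPKM in CFPAC-1-GR (log2FC 0.70, adjusted p = 0.00024, corrected 0.72). NFKBIZ, a nuclear IκB protein, did not pass in BxPC-3-GR (log2FC 0.07, adjusted p = 0.78) and was 22.2 ± 3.34 FPKM in CFPAC-1-GR against 11.98 ± 0.293 in CFPAC-1 (log2FC 0.82, adjusted p = 0.00039, corrected 0.47). NFKBIE, the IκBε gene, was at 2.21, 2.19 and 2.06 FPKM in BxPC-3 and 3.39, 3.68 and 2.85 FPKM in BxPC-3-GR (log2FC 0.44, adjusted p = 0.0043). It fell by 0.61 on the log2 scale in CFPAC-1-GR, from 6.19, 6.65 and 6.46 FPKM to 3.80, 3.62 and 4.19 FPKM, and was 0.44 after correction (adjusted p = 0.0029). TNIP2, an A20-binding protein, was at 4.02, 3.98 and 3.16 FPKM and 4.66, 4.42 and 4.77 FPKM in the BxPC-3 lines and at 7.91, 7.67 and 7.17 FPKM and 3.54, 4.10 and 3.86 FPKM in the CFPAC-1 lines. Its log2FC were 0.26 (adjusted p = 0.042) and -0.83 (adjusted p = 5e-05), the second 0.24 after correction. TNIP1, a related A20 partner, fell in BxPC-3-GR (log2FC -0.21, adjusted p = 0.026) and in CFPAC-1-GR as deposited (log2FC -0.86, adjusted p = 3.6e-05), with a corrected value of -0.10 (adjusted p = 0.22). NFKBIB, the IκBβ gene, was under the minimum in both lines, at means of 0.522 FPKM in BxPC-3, 0.170 in BxPC-3-GR, 0.444 in CFPAC-1 and 0.244 in CFPAC-1-GR.

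Both cell-associated targets were SDE up in BxPC-3-GR. TNFAIP2, a TNF-inducible gene of membrane protrusions (chr14:103123442-103137439), was at 7.05, 12.3 and 8.11 FPKM in BxPC-3 and 83.1, 102 and 91.3 FPKM in BxPC-3-GR. This 10.1-fold rise was the largest fold change of any tested member in that line (log2FC 3.23, SE 0.194, adjusted p = 5.4e-05). ICAM1, the leukocyte adhesion receptor (chr19:10270835-10286615), was at 10.6, 10.1 and 10.6 FPKM and 47.1, 47.6 and 48.1 FPKM, with a spread far below the difference (4.56-fold, log2FC 2.09, SE 0.0462, adjusted p = 2.2e-06). Both genes were already high in CFPAC-1. TNFAIP2 was at 71.4, 71.4 and 79.2 FPKM there and 60.3, 71.0 and 73.2 FPKM in CFPAC-1-GR, which overlapped (log2FC -0.12, adjusted p = 0.28), and the corrected log2FC was 0.80 (adjusted p = 0.00026). ICAM1 was at 30.5, 32.7 and 33.1 FPKM in CFPAC-1 and 39.9, 53.5 and 51.0 FPKM in CFPAC-1-GR (log2FC 0.56, SE 0.118, adjusted p = 0.0037). After correction it was SDE (log2FC 1.29, adjusted p = 0.00013). An antisense gene overlaps 815 of the 3706 exon bases of ICAM1.

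**Figure D3:**
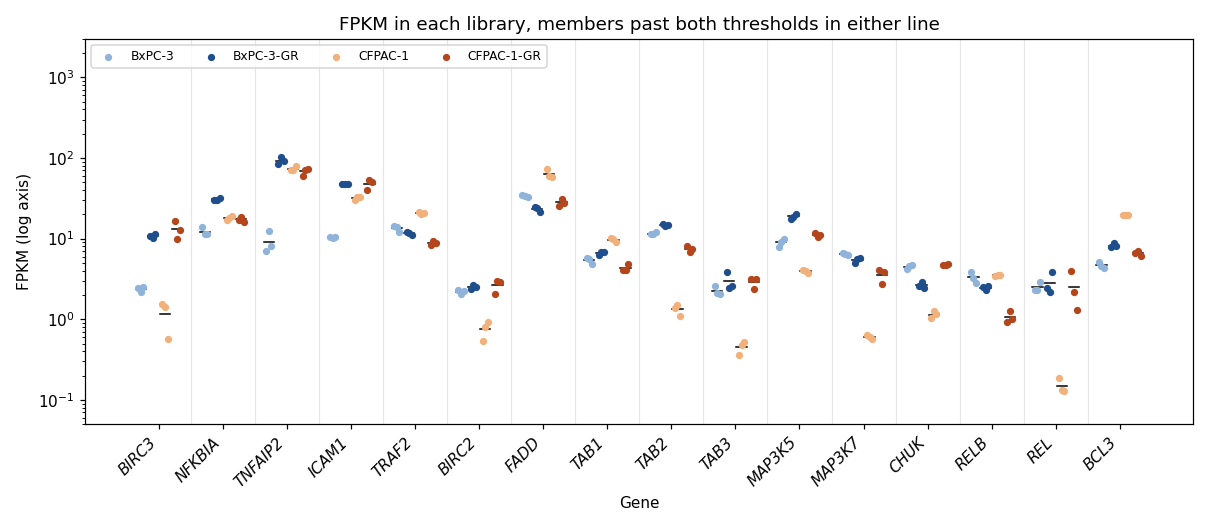
FPKM on a log axis (y) in each of the 12 libraries for the 16 genes SDE in either line (x), with points for libraries and black bars for group means of 3. TNFAIP2 and ICAM1 in BxPC-3-GR lie near their levels in both CFPAC-1 lines and above all BxPC-3 libraries, whereas REL in CFPAC-1 lies at 0.129 to 0.187 FPKM, below all other groups.

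**Figure D4:**
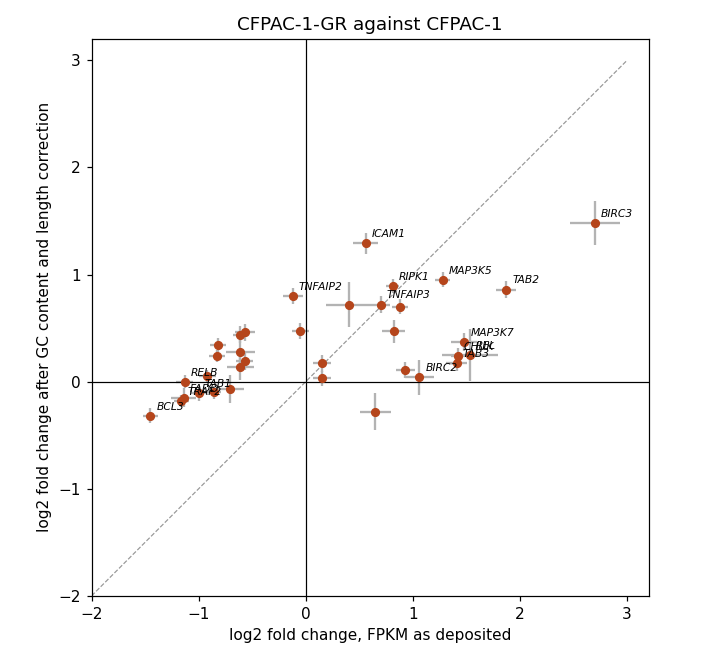
Log2 fold change of each tested gene in CFPAC-1-GR against CFPAC-1 from the deposited FPKM (x axis) and after the GC content and length correction (y axis), with standard errors as grey lines and a dashed line of equality. BIRC3 stays above 1 on both axes (2.70 and 1.48), ICAM1 lies above the dashed line (0.56 and 1.29), and the genes below -1 on the x axis lie between -0.32 and 0.00 on the y axis.

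The parental lines were compared in the same way. Of 33 genes tested between CFPAC-1 and BxPC-3, 7 were SDE higher in CFPAC-1 and 8 higher in BxPC-3, against 19.8% and 24.7% of 11842 genes, so the members' shares were near those of all genes. After correction 4 and 7 were SDE, against 12.4% and 14.6% of 11821 genes. TNFRSF1B (log2FC 2.31), TNFAIP2 (2.92), TNIP1 (1.96) and ICAM1 (1.53) were higher in CFPAC-1, and the first 3 remained SDE after correction (1.37, 1.98 and 1.19). NFKB2, NFKBIE, BCL3 and ICAM1 were SDE only as deposited, and CFLAR (1.28) only after correction. NFKB1 (log2FC -1.46), TNFAIP3 (-1.72) and TAB2 (-2.43) were higher in BxPC-3 and remained SDE after correction (-1.52, -1.80 and -1.32). TAB3, MAP3K5, MAP3K7, CHUK and REL were SDE higher in BxPC-3 only as deposited. TNFRSF1A (-1.15), TRAF3 (-1.02), IKBKG (-1.13) and RELB (-1.12) were so only after correction. This comparison shares its libraries with those of each resistant line.

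Whether a gene responded differently in the 2 lines was tested as an interaction over all 12 libraries. SDE differences were found for 16 of 35 members, against 38.0% of all 12210 genes. After the correction 2 of 35 remained SDE, against 19.6% of all genes. RIPK1 was higher in the CFPAC-1 response by 1.17 (SE 0.0837, adjusted p = 3e-07) and by 1.25 after correction (adjusted p = 7.1e-07). With median-of-ratios scaling the difference was 0.85 (adjusted p = 5.4e-06), which passed but was not SDE. TNFAIP2 was lower there (log2 difference -3.35, SE 0.229, adjusted p = 2.2e-07) and had a corrected difference of -2.30 (adjusted p = 6.3e-06). The corrected differences of BCL3 (-0.87), CHUK (0.88), NFKBIA (-0.83) and ICAM1 (-0.78) passed the test but were under 1 in size.

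Genes of the same pathway outside the 39 were counted from 3 lists. The lists were written with earlier results of these data known, so their counts are a description and not a test. Among signaling machinery, 27 of 32 genes were tested in each line. In BxPC-3-GR 7 passed upward and 5 downward, beside 26.2% and 31.5% of all genes. There were 0 SDE up and 1 SDE down, beside 4.14% and 3.62% of all genes. The 1 gene was MLKL, the executioner of necroptosis, which fell from 3.72 ± 0.338 to 0.784 ± 0.0132 FPKM (log2FC -1.40, adjusted p = 2e-05). In CFPAC-1-GR 16 passed upward and 8 downward, with 6 SDE up and 3 down, where 44.6%, 34.9%, 20.5% and 11.7% of all genes did. Among the 6, MAP2K4, CYLD, MALT1 and TANK averaged under 1 FPKM in CFPAC-1. After correction 1 was SDE up and 0 down there, beside 7.07% and 2.35% of all genes. The gene was TBK1, an IKK-related kinase (log2FC 2.10 as deposited and 1.13 corrected). Of 29 other TNF superfamily ligands and receptors, 15 were tested in the BxPC-3 lines, where 4 were SDE up and 1 down, beside 4.14% and 3.62% of all genes. TNFSF9, the ligand of 4-1BB, rose from 0.415 ± 0.191 to 11.2 ± 0.402 FPKM (log2FC 3.12, adjusted p = 5.5e-06). TNFRSF11B, the decoy receptor osteoprotegerin, rose by 2.10 on the log2 scale, NGFR by 1.71 and EDAR by 1.09. TNFRSF12A, the receptor of TWEAK, fell by 1.08. TNFSF9, TNFRSF11B and EDAR averaged 0.415, 0.587 and 0.573 FPKM in BxPC-3. They passed the minimum mean only through BxPC-3-GR, so the filter favored their calls. Of 16 tested in the CFPAC-1 lines 3 were SDE up and 1 down, beside 20.5% and 11.7%. TNFSF14 (LIGHT) and TNFSF15 (TL1A) remained SDE up after correction, at 2.95 and 1.08. Both passed the minimum mean only through CFPAC-1-GR, with CFPAC-1 means of 0.471 and 0.114 FPKM.

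Secreted NF-κB targets were the third list, also written with earlier results of these data known, so its counts are a description. In BxPC-3-GR 11 of 18 tested genes passed upward and 5 downward, against 26.2% and 31.5% of all genes. There were 6 SDE up and 3 down, against 4.14% and 3.62%, and the correction gave the same SDE counts. The neutrophil chemokine CXCL8 rose from 19.3 ± 1.69 to 140.0 ± 9.42 FPKM (log2FC 2.80, adjusted p = 4.6e-06). CSF1, the macrophage growth factor, rose by 2.27 on the log2 scale, CCL20 by 1.99, CXCL1 by 1.69, LCN2 by 1.40 and CXCL3 by 1.35. IL1A, IL1B and CXCL5 fell, with log2FC of -1.64, -1.45 and -1.27. In CFPAC-1-GR 7 of 21 tested genes were SDE up and 3 down, beside 20.5% and 11.7% of all genes. After the correction 3 were SDE up and 3 down, beside 7.07% and 2.35%. The genes SDE down were not the same. Of CSF2, LIF and LCN2 only CSF2 stayed SDE, with corrected log2FC of -1.18, -0.55 and -0.24. TNFSF15, SDE up in both fits, also stands in the TNF superfamily list. The acute-phase genes SAA1 and SAA2 were SDE up both as deposited (log2FC 1.45 and 2.08) and corrected (1.84 and 1.86). Over this list the median log2FC was 0.62 for the BxPC-3 lines and 0.17 for the CFPAC-1 lines, beside -0.05 and 0.13 over all genes.

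Epithelial markers were present, as labeled. All 7 epithelial markers reached a mean of 1 FPKM in every line but BxPC-3, where MUC1 did not. Their sum was 2645 to 2920 FPKM in CFPAC-1 and 1162 to 1354 FPKM in CFPAC-1-GR. The summed mesenchymal markers were 12.4 to 16.6 FPKM over the BxPC-3 and BxPC-3-GR libraries, 119.7 to 155 FPKM in CFPAC-1 and 85.2 to 98.4 FPKM in CFPAC-1-GR. Vimentin (VIM) was at 106 to 141 FPKM in CFPAC-1 and at 51.2 to 68.7 FPKM in CFPAC-1-GR. N-cadherin (CDH2) was at 11.3 to 12.2 FPKM and 25.2 to 33.3 FPKM in the same lines. The near-equal sums of BxPC-3 and BxPC-3-GR held markers that moved oppositely. VIM was at 5.51 to 7.25 FPKM in BxPC-3 and 0.686 to 0.891 FPKM in BxPC-3-GR. CDH2 was at 1.57 to 2.32 and 4.86 to 6.35 FPKM, and FN1 at 5.11 to 5.50 and 8.82 to 9.33 FPKM. Of the leukocyte markers PTPRC was at 0 in all 12 libraries, and CD3E did not exceed 0.0968 FPKM. Others were present in CFPAC-1, with CD68 at 29.3 to 36.9 FPKM, LYZ at 6.05 to 8.26 FPKM and CD14 at 3.26 to 3.45 FPKM. The summed leukocyte markers were 3.21 to 4.45 FPKM in BxPC-3, 1.65 to 2.02 FPKM in BxPC-3-GR, 38.6 to 48.5 FPKM in CFPAC-1 and 15.1 to 18.2 FPKM in CFPAC-1-GR, mostly from CD68. The endothelial sum did not exceed 0.911 FPKM and the fibroblast sum 4.12 FPKM. The part of these markers in the results was not tested. Estimated depth was 12700000 to 25300000 mapped fragments per library, which left REL in CFPAC-1 with about 48, 22 and 22 fragments. Some members passed the minimum mean with 1 group under 1 FPKM, so the filter favored members that differ. These were BIRC2, TAB3, MAP3K7 and REL in the CFPAC-1 lines, MAP3K8, IKBKB and CFLAR in the BxPC-3 lines, and TNFRSF1B, BIRC2, TAB3, MAP3K7 and REL between the parental lines.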

How the data were processed

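Libraries came from 2 parental lines and their GEM-resistant derivatives, 3 replicates of each. The authors deposited FPKM values for 58302 genes, with GRCh38 named as the reference in their methods. The submitters' processing notes list Trimmomatic 0.27, FastQC 0.10.1 and TopHat2 2.0.8, and the counting program is not given in the sources used here. FPKM values scale fragments by gene length and mapped fragments, so no count test was run. Depth was estimated from steps between low values, of which 57.1% to 66.5% were whole within 0.05 of a fragment.

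The 39 genes and the pathway lists were chosen with earlier results of these data known. Limma 3.58.1 in R 4.3.3 was fitted to log2(FPKM + 1) for genes averaging 1 FPKM or more over the libraries of a comparison, and p-values were adjusted by Benjamini-Hochberg over all of them. This scale understates fold changes of low genes. A gene was SDE where the adjusted p was under 0.05 and log2FC exceeded 1 in size. The interaction used all 12 libraries. The correction subtracted from each log2 ratio a spline on GC content and exon length with 5 degrees of freedom each, taken for 58039 of the genes out of GENCODE release 29. Genes given by library were those SDE in a line or in the interaction, the receptors, IKK and NF-κB subunits. Alternatives were a pseudocount of 0.1, no filter or a minimum mean of 0.1, 2 scalings, all 12 libraries in 1 fit, the replicate block, protein-coding genes, a variance trend and each library left out. The fits were run on simulated data with changes placed only in genes well above the minimum mean, so low members were not covered. No recovery limit was set there for the uncorrected fit under a GC trend. Every value column of the table was used. Figures were drawn with matplotlib 3.10.9 in Python 3.11.15.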

Additional observations from a re-analysis of the deposited data

Results flagged for a closer look

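The responses of 16 genes differed between the lines, by the interaction test over all 12 libraries with limma. Each value is the log2FC of CFPAC-1-GR minus that of BxPC-3-GR. The CFPAC-1 response was higher for CHUK (2.02), MAP3K7 (1.69), TAB2 (1.54), REL (1.42), CASP8 (1.37), RIPK1 (1.17) and TAB3 (1.14). It was lower for TNFAIP2 (-3.35), BCL3 (-2.16), ICAM1 (-1.53), TRADD (-1.35), NFKBIA (-1.32), TAB1 (-1.26), TNIP2 (-1.08), NFKB2 (-1.05) and NFKBIE (-1.05). Over the 35 tested members Spearman's rho between this difference and GC content was -0.85, and -0.21 after the correction. RIPK1 (1.25) and TNFAIP2 (-2.30) remained SDE after it. With median-of-ratios scaling RIPK1 (0.85) and TAB3 (0.93) passed the test but were not SDE.

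TNFAIP2, BCL3, ICAM1, NFKB2, NFKBIE and the other genes named here share the parental libraries with the comparison of CFPAC-1 and BxPC-3. TNFAIP2 was 9.16 ± 2.79 FPKM in BxPC-3, 92.2 ± 9.50 in BxPC-3-GR, 74.0 ± 4.51 in CFPAC-1 and 68.2 ± 6.91 in CFPAC-1-GR (SD, n = 3). RIPK1 was 7.29 ± 0.551, 5.46 ± 0.157, 4.06 ± 0.187 and 7.85 ± 0.247 FPKM in the same order. The groups of either line did not overlap for RIPK1.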

How the results depend on the processing

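The correction for GC content and length changed the CFPAC-1 results most. With it, alone and with the replicate block, 2 members were SDE up in CFPAC-1-GR in place of 8, 0 SDE down in place of 5, and 2 SDE between the responses in place of 16. Downward passes in CFPAC-1-GR went from 15 to 2, and to 1 with the block. Over all genes the share passing downward there went from 34.9% to 21.6% with the correction alone. SDE members higher in CFPAC-1 than in BxPC-3 went from 7 to 4 in both fits. Log2FC that changed sign in CFPAC-1-GR were those of TNFRSF1A (0.19), TNFRSF1B (0.28), TRADD (0.34), CFLAR (-0.28), MAP3K14 (0.14), IKBKG (0.46), NFKB2 (0.05), RELB (0.00), NFKBIA (0.47), NFKBIE (0.44), TNIP2 (0.24) and TNFAIP2 (0.80), the same with the block. TAB3 between the parental lines became 0.20, and the differences of response of NFKB2, NFKBIE and TNIP2 became 0.03, 0.05 and 0.05. The cause of the trend was not tested.

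A pseudocount of 0.1 gave 7 SDE members up and 1 down in BxPC-3-GR, beside 6.64% and 5.57% of all genes. It added MAP3K5 (1.06), MAP3K8 (1.20), IKBKB (1.28) and MAP3K14 (-1.06). Median-of-ratios and upper-quartile scaling each gave 6 downward passes there in place of 10. The median log2FC of all genes there was -0.0051 and -0.0012 under these scalings, in place of -0.0454. Median-of-ratios scaling gave 9 SDE members down in CFPAC-1-GR, where the share of all genes rose from 11.7% to 18.9%. It moved the median log2FC of all genes there from 0.13 to -0.11. Leaving out each library in turn gave 5 to 10 downward passes and 4 to 5 members SDE up in BxPC-3-GR. In CFPAC-1-GR it gave 7 to 8 members SDE up and 4 to 5 SDE down. Over all genes these SDE shares were 3.79% to 4.49%, 19.2% to 21.1% and 11.2% to 12.8%. Shares of all genes passing downward with other scalings or a library left out are not given here. The downward counts in those fits are therefore no result about the members. MAP3K5 in BxPC-3-GR was SDE under both scalings (1.04 and 1.05). It was also SDE without BxPC-3 replicate 2, BxPC-3 replicate 3 or BxPC-3-GR replicate 1 (1.01 to 1.06). In CFPAC-1-GR, BIRC2 was not SDE with median-of-ratios scaling (0.88) or without CFPAC-1 replicate 1 (0.96), CFPAC-1-GR replicate 2 (0.99) or CFPAC-1-GR replicate 3. TAB1 was not SDE with upper-quartile scaling (-0.99) or without replicate 1 or 2 of either line (-0.97 to -0.99). Between the parental lines MAP3K5 was not SDE with median-of-ratios scaling (-0.90) or without BxPC-3 replicate 2, BxPC-3 replicate 3 (-0.95) or CFPAC-1 replicate 3 (-0.98). The differences of response of NFKB2 and TNIP2 without BxPC-3 replicate 3, of NFKB2 without CFPAC-1-GR replicate 1 (-0.98) and of NFKBIE without BxPC-3-GR replicate 2 (-0.99) were not SDE. Each of these passed the test. All other counts stayed within 1.5 times of their values under the alternatives run.

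Replicate numbers did not pair the libraries: deviations from the group means of same-numbered libraries correlated between -0.052 and 0.096 in the BxPC-3 lines and between -0.143 and 0.000 in the CFPAC-1 lines. With the replicate block 15 members passed upward and 8 downward in BxPC-3-GR and 15 and 15 in CFPAC-1-GR. Shares of all genes passing in that fit are not given here. The SDE counts were 4, 0, 8 and 5, beside 4.12%, 3.64%, 20.5% and 11.7% of all genes. Low FPKM limits REL, TAB3, MAP3K7 and BIRC2 in CFPAC-1, with means of 0.149 to 0.755 FPKM.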
